A study of Mus musculus with 5 samples.

Results

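Splenic cells carrying transcripts of the endothelial genes Cdh5, Plvap, Kdr and Egfl7 were examined in single-cell RNA-seq libraries of mouse spleen. Levels are given as CPM, the UMIs of a gene scaled to a common total of UMIs. Members were chosen by measured UMI counts among base cells, that is, cell barcodes holding 1000 or more UMIs (unique molecular identifiers, each counting 1 captured transcript), 500 or more genes and no more than 10% mitochondrial UMIs. A base cell entered the gate when it held at least 4 UMIs of the 4 genes together, at most 2 UMIs of Cd79a, Cd79b and Ms4a1, at most 1 UMI of Cd3d, Cd3e and Cd3g, and under 10 UMIs of C1qa, C1qb and C1qc. The gate took 338 of 16271 base cells. The labels describe 5 groups of C57/BL6 mice, each with 1 library of spleen cells taken 48 h after an intravenous infusion: live allogeneic (Balbc) splenic cells, live isogeneic (B6) splenic cells, apoptotic allogeneic (Balbc) splenic cells, apoptotic isogeneic (B6) splenic cells, and saline. In all 5 groups the tissue was broken up enzymatically, CD45+ cells and dendritic cells were taken up on magnetic columns separately, and both fractions were mixed 1:1, so the yield of CD45-negative cells rested on what passed these columns. The sources used here do not give sex, age or the number of mice per library. With 1 library per group, no difference between groups has a replicate check, and the intervals below cover counting error only.

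Endothelial cells line every vessel. Cdh5 encodes VE-cadherin, the adhesion molecule of endothelial junctions, Plvap forms the diaphragms of fenestrae and caveolae, Kdr is the main signalling receptor for VEGF, and Egfl7 is a secreted protein of the vessel wall. The red pulp of the spleen is drained by venous sinuses whose lining cells take up waste macromolecules through scavenger receptors such as Stab2, while arterioles and capillaries carry other sets of surface proteins. Egfl7 and Kdr are also found outside endothelium, which is why further markers were read beside the gate.

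Promoters of 4 genes that the description turns on are shown because endothelial genes are commonly bound by ETS-family transcription factors, of which Erg, Ets1 and Fli1 are named below. The windows run from 250 bases before to 50 bases after the RefSeq start on the gene's own strand (GRCm38.p6), 5′ to 3′. Capitals mark AGGAAG, searched on both strands, so that it reads CTTCCT when it lies on the other strand. The windows are Kdr at chr5:75978406-75978705 on the minus strand, Egfl7 at chr2:26583615-26583914 on the plus strand, Flt1 at chr5:147725962-147726261 on the minus strand, and Stab2 at chr10:87007893-87008192 on the minus strand.
Kdr: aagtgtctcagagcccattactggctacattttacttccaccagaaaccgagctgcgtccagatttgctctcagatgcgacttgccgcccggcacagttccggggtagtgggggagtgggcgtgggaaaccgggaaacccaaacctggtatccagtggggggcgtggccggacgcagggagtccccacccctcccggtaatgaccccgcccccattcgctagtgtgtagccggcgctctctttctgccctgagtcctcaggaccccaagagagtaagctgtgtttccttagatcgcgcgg
Egfl7: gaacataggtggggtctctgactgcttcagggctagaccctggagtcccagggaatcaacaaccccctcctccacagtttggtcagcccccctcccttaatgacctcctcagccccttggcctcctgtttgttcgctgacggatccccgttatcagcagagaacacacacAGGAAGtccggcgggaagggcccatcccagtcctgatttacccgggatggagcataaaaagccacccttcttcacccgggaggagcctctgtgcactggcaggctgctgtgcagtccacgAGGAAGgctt
Flt1: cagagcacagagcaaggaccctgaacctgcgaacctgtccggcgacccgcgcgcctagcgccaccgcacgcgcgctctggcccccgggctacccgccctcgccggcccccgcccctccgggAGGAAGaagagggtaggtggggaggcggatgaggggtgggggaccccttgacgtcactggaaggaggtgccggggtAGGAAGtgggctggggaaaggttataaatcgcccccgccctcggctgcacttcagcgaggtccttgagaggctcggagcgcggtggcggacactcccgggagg
Stab2: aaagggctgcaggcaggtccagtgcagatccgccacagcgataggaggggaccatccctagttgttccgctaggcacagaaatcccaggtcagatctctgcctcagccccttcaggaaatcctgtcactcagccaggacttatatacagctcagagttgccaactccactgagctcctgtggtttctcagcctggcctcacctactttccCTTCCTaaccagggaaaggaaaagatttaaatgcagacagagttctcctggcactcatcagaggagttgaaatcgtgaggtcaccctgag
Egfl7 has 3 windows in the table, with 3, 2 and 0 matches, and the middle one is shown. The Kdr window held 0 matches, the Egfl7 and Flt1 windows 2 each and the Stab2 window 1. Of the 34 gate and pan-endothelial genes, 21 had entries in the promoter table, with 25 windows in all. Of these windows 68.0% held the motif, against 35.4% of all 32851 windows. A match describes these letters only.

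The label held for 167 of the 338 cells. On the 30 pan-endothelial genes that the gate did not use, such as Cldn5, Ptprb and Eng, the 338 cells fell apart with a wide gap. The 167 cells held 76.3 to 230 pan-endothelial UMIs per 10,000 UMIs of the cell, and the highest of the other cells held 20.8. The limit of 40 between them was set after the values were seen, so the sets below are described with no test, and the 167 cells are called endothelial-rich. Their median was 138 pan-endothelial UMIs per 10,000, with a median of 18 of the 30 genes detected. All 4 gate genes were detected in 118 of them, 3 in 41 and fewer in the other cells, and Ptprc, which encodes the leukocyte surface protein CD45, was at 0 UMIs in 162 (97.0%).

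The second set held 115 cells with at least 10 UMIs of a group of erythroid genes that includes Alas2, Car1, Car2, Klf1 and Ermap. These erythroid-marker cells were very deep, with a median of 53868 UMIs against 4085 in the endothelial-rich cells. All 115 held Egfl7 and 58 held Plvap, while 1 held Cdh5 and 1 held Kdr. Their median of 5 gate UMIs came with 1.06 pan-endothelial UMIs per 10,000. They made up 81.5% of all UMIs of the gate, and the endothelial-rich cells 11.6%. The remaining 56 cells had a median of 8588.5 UMIs and 0.801 pan-endothelial UMIs per 10,000. Kdr was detected in 50 of them and Cdh5 in 27, and Siglech, a lectin of plasmacytoid dendritic cells, in 44, and Ptprc was at 0 in 2. Both sets thus held gate genes but few of the other pan-endothelial genes, so the gate as a whole is called by its rule.

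**Figure D1:**
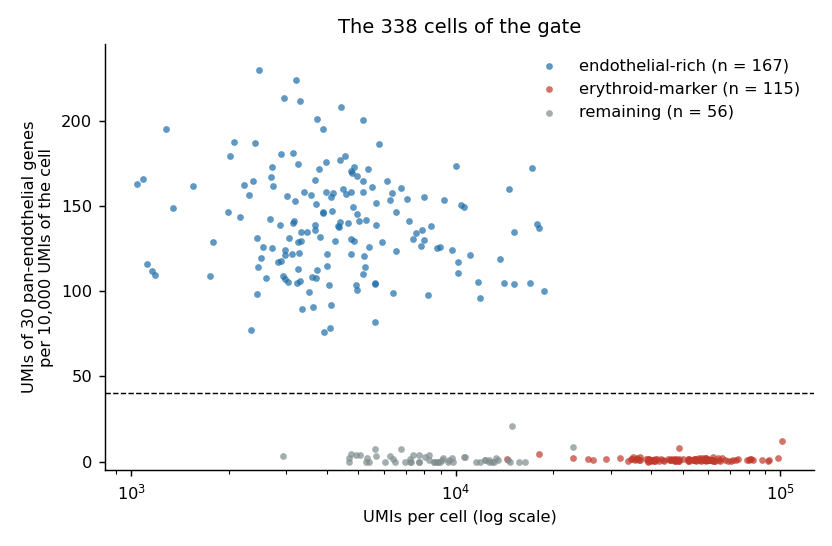
Each point is 1 cell of the gate, with its UMIs on a log axis and the UMIs of the 30 pan-endothelial genes per 10,000 UMIs of the cell. The dashed line is the limit of 40: no cell lies between 20.8 and 76.3.

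At the edge of the gate, 83 cells held exactly 4 gate UMIs and 91 further base cells held 3 within the same exclusion limits. Of these, 7 and 4 cells passed the limit of 40 pan-endothelial UMIs per 10,000. The 5 libraries shared 0 to 8 base cell barcodes per pair, and no barcode was in the gate of 2 libraries.

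The gate took 51 of 1186 base cells in the live allogeneic library (4.30%, exact Clopper-Pearson 95% interval 3.22 to 5.62%) and 77 of 3685 in the live isogeneic library (2.09%, 1.65 to 2.60%). It took 63 of 2118 in the apoptotic allogeneic library (2.97%, 2.29 to 3.79%) and 61 of 6380 in the apoptotic isogeneic library (0.956%, 0.732 to 1.23%). In the saline library it took 86 of 2902 (2.96%, 2.38 to 3.65%). The order changed when the sets were counted apart, since the sets took different shares of each library.

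Endothelial-rich cells numbered 21 in the live allogeneic library (1.77%, 1.10 to 2.69%) and 17 in the live isogeneic library (0.461%, 0.269 to 0.738%). They numbered 28 in the apoptotic allogeneic library (1.32%, 0.880 to 1.91%), 42 in the apoptotic isogeneic library (0.658%, 0.475 to 0.889%) and 59 in the saline library (2.03%, 1.55 to 2.61%). Both isogeneic libraries lay below the other 3, with intervals that did not overlap those of the allogeneic library of the same kind or of saline, except for the apoptotic pair, where 0.880 and 0.889% touched. Base cells per library, the denominator, ranged from 1186 to 6380 and were highest in the isogeneic library of each pair. Whether the number of endothelial-rich cells or the yield of other cells differed cannot be told apart in these shares. Erythroid-marker cells numbered 7, 44, 29, 13 and 22 in the live allogeneic, live isogeneic, apoptotic allogeneic, apoptotic isogeneic and saline libraries, and the remaining cells 23, 16, 6, 6 and 5. In the live allogeneic library the remaining cells (1.94%, 1.23 to 2.90%) were as frequent as the endothelial-rich ones. In the live isogeneic library erythroid-marker cells held 92.1% of the gate's UMIs.

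**Figure D2:**
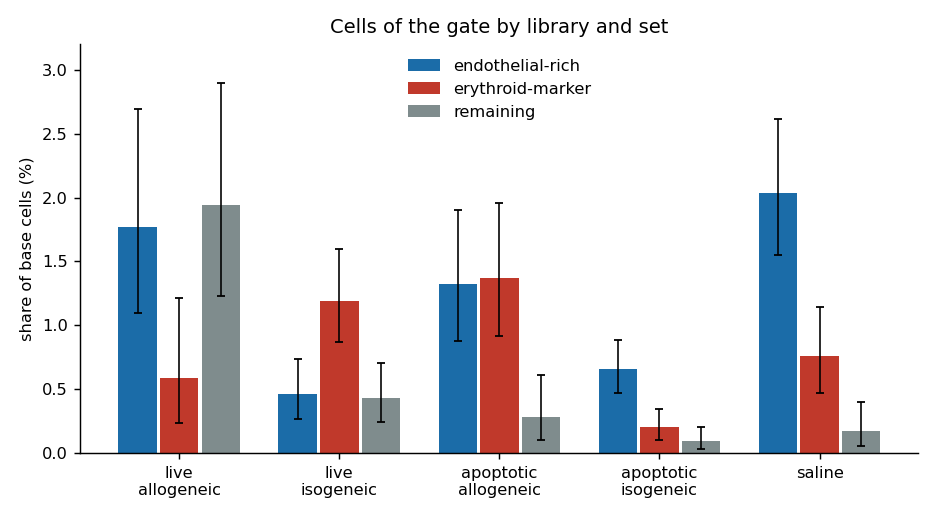
Bars give the share of base cells in each set of the gate, by library, with exact 95% intervals of counting error as whiskers. Endothelial-rich cells were at 1.77, 0.461, 1.32, 0.658 and 2.03%, left to right.

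The gate genes chose the cells, so their levels are a description. In the endothelial-rich cells Plvap, at chr8:71497765-71511752 in mm10, was at 2511, 1964, 2622, 2084 and 2128 CPM in the live allogeneic, live isogeneic, apoptotic allogeneic, apoptotic isogeneic and saline libraries, the order used for every such run of values below. Kdr (chr5:75932827-75978458) was at 1049, 1207, 1600, 1661 and 1320. Egfl7 (chr2:26580014-26593120) was at 1133, 680, 1268, 1321 and 1011, and Cdh5 (chr8:104101625-104144511) at 666, 768, 584, 652 and 574. Each gene stayed within 2-fold across the libraries, and the 4 genes ranged from 1.79 to 7.41 CPM in the other base cells of the 5 libraries.

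Across all genes the gate was set against the other base cells of the same library. The 5 libraries, each of a different group, served as replicates of this contrast. By edgeR's quasi-likelihood test with library as a block and Benjamini-Hochberg adjustment, 3095 of 11782 genes were higher in the gate (26.3%) and 3527 lower (29.9%) at an adjusted p under 0.05. With at least 6 gate UMIs per cell, 1545 genes were higher. Erythroid-marker cells held 81.5% of the gate's UMIs and endothelial-rich cells 11.6%. Their part in this and every later count of genes higher or lower in the gate was not tested. Of the 30 pan-endothelial genes 29 were tested. Of these 27 were higher, S1pr1 was lower (log2 fold change -2.53), and Pecam1, which platelets and leukocytes also carry, did not pass (log2 fold change -0.12, adjusted p = 0.78). The median log2 fold change of the list was 5.09, against -0.07 over all genes tested. S1pr1, a receptor that guides lymphocyte exit, is also carried by lymphocytes. It was at 124, 121, 106, 147 and 89.8 CPM in the endothelial-rich cells, not below the 88.9 CPM of the other base cells.

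The highest fold changes were of genes that were nearly all at 0 in the erythroid-marker cells. Esm1 (chr13:113209659-113218098), a secreted proteoglycan of VEGF-stimulated endothelium, led with a log2 fold change of 8.70 ± 0.43 (SE, n = 5 libraries, edgeR adjusted p = 8.94e-06). Each SE of a log2 fold change is that value over the square root of the edgeR F statistic. It is not a spread of library values. In endothelial-rich cells Esm1 was at 378, 329, 239, 270 and 324 CPM, against 0 to 0.217 in the other base cells, and 40.7% of endothelial-rich cells held it. Abcc9, a subunit of a potassium channel, followed with 7.87 ± 0.41 (edgeR adjusted p = 1.05e-05) and was at 726, 450, 432, 487 and 410. Cldn5, the claudin of endothelial tight junctions, had a log2 fold change of 7.15 ± 0.29 and was detected in 98.8% of endothelial-rich cells, at 1596, 976, 1646, 2108 and 1679. The levels of each of these 3 genes in all 5 libraries lay far above those of the other base cells.

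The other genes of the highest 25 had log2 fold changes of 6.79 to 7.60. Inhbb, a subunit of activin, was at 7.60 ± 0.70, Sox18, a transcription factor of vessel formation, at 7.52 ± 0.56, and Gpihbp1, which anchors lipoprotein lipase to capillary walls, at 7.38 ± 0.62. Ccn2, a matrix protein, was at 7.22 ± 0.56, Pcdh17, a protocadherin, at 7.05 ± 0.57, and Aplnr, the apelin receptor, at 6.98 ± 0.70. Gpr182, an atypical chemokine receptor of sinusoidal vessels, was at 6.96 ± 0.38, Ptprb, the phosphatase that acts on Tek, at 6.85 ± 0.47, and Nr5a1 at 6.79 ± 0.35. Nr5a1 encodes the nuclear receptor SF-1, which is known for steroid-producing tissues and for development of the spleen, and 49.1% of endothelial-rich cells held it, at 159, 241, 226, 153 and 148 CPM. Mmrn2, Tm4sf1, Timp1, Sema3a, Fat4, Lrrn1, Ttll7, Tmem35a, Fam181b, AU021092, C130074G19Rik, Gm37350 and the antisense RNA Gm16070 completed the 25, and the sources used here do not say whether counting used strand.

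Receptors and transcription factors of endothelium were read next. Of the 14 tested genes of the VEGF, angiopoietin and TGF-beta receptor list, 10 were higher and 2 lower in the gate. Over all genes the shares were 26.3% higher and 29.9% lower. Flt4, the VEGF-C receptor, rose by 6.4 ± 0.53 on the log2 scale, Tie1 by 6.62 ± 0.30, Tek by 4.45 ± 0.55 and Flt1 by 3.57 ± 0.51 (edgeR, SE, n = 5 libraries). Eng, a co-receptor for BMP9, rose by 3.59 ± 0.32 and was also found in erythroid-marker cells, at 55.3 CPM. Tgfbr2 and Smad7 were lower. Of 17 tested transcription factors 8 were higher and 5 lower, against the same 26.3% and 29.9%, so the lower count is near the share over all genes. Prox1 rose by 6.62 ± 0.33, Gata6 by 5.02 ± 0.49, Nr2f2 by 4.70 ± 0.39, Epas1 by 4.51 ± 0.44 and Erg by 4.22 ± 0.45. Tal1, which erythroid cells also use, rose by 1.99 ± 0.20 and was at 112 CPM in erythroid-marker cells. Ets1, Fli1, Mef2c, Klf2 and Hhex were lower in the gate. Leukocytes carry each of them, and erythroid-marker cells held most of the gate's UMIs. The part of either in these values was not tested. Ets1 was nevertheless at 239, 263, 279, 194 and 199 CPM in the endothelial-rich cells, against 281 over the other base cells.

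The endothelial-rich cells carried scavenger receptors of sinus lining. Stab2, which clears hyaluronan from blood, was detected in 161 of 167 of them (96.4%), and at 1188, 1339, 1401, 1303 and 1453 CPM. Its share was 0.9% in erythroid-marker cells, 1.8% in the remaining cells and 0.4% in 7650 base cells with at least 3 UMIs of B cell genes, where a UMI is taken as free RNA (median 2545 UMIs per cell, against 4085). After thinning each cell to 1000 UMIs, the share was 75.4% in the endothelial-rich cells and 0.2% in the B-marker cells. Stab1 was at 403, 252, 339, 358 and 383, Mrc1, the mannose receptor, at 219, 208, 159, 235 and 246, and Cd36, a fatty acid and lipoprotein receptor, at 1472, 1218, 1474, 1356 and 1316. Of the 15 tested genes of this list 8 were higher in the gate and 4 lower, against 26.3% and 29.9% over all genes. The lower count is near the share over all genes. Stab1 was at a log2 fold change of 5.87 ± 0.47 and Stab2 at 5.89 ± 0.30. Mrc1 did not pass the test (log2 fold change 1.12, edgeR adjusted p = 0.096). Lyve1, the hyaluronan receptor of lymphatic and liver sinusoidal endothelium, was at 0 UMIs in all 338 cells, which at a floor of 3 cells allows a share of cells with a UMI of up to 0.888%. Dnase1l3 was at 0 in the endothelial-rich cells.

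Markers of the other vessel types were present in part. Of the capillary list, Gpihbp1 was at 1213, 658, 1407, 1996 and 1254 CPM and Ly6c1 at 1059, 373, 856, 699 and 761, while Car4, Meox2, Timp4 and Rgcc were at 0 in the endothelial-rich cells. Of the venous list, Lrg1, a secreted glycoprotein, was at 2063, 669, 929, 1033 and 828, and Nr2f2, the transcription factor of vein identity, at 338, 494, 378, 288 and 375. Selp, Cpe and Bgn were at 0, and Ackr1 had 2 UMIs. Of the arterial list, Efnb2, the ephrin of arterial endothelium, was at 99.4, 143, 206, 117 and 113 and Sox17 at 34.8, 43.9, 120, 70.5 and 105, while Gja5, Mgp and Bmx were at 0. Of the lymphatic list, Prox1 was at 323, 417, 252, 200 and 285 and Flt4 at 144, 187, 246, 211 and 184, while Pdpn, Lyve1, Reln and Ccl21a were at 0. Prox1, which is known as the switch gene of lymphatic identity, was thus found in 62.9% of cells with none of these 4 other lymphatic genes. Vwf, stored in the granules of many endothelial cells and in platelets, had 7 UMIs in all.

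**Figure D3:**
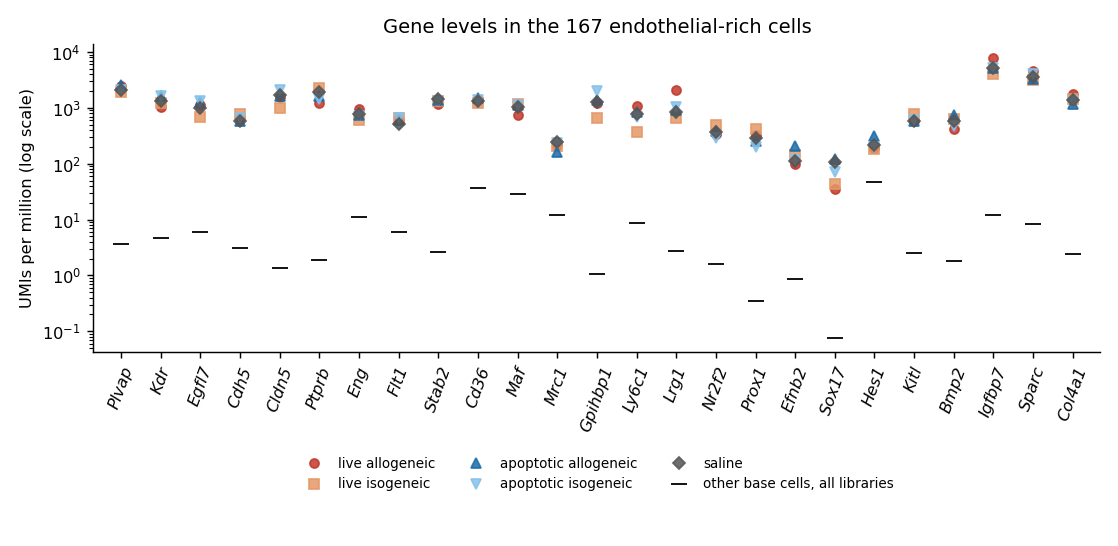
CPM on a log axis for 25 genes in the endothelial-rich cells, 1 point per library, and in the other base cells of all libraries (short bar). Every library's point lies above the bar, from Sox17 at 34.8 to 120 against 0.0758 up to Igfbp7 at 4038 to 7830 against 11.9. Plvap, Kdr, Egfl7, Cdh5, Cldn5, Ptprb, Eng and Flt1 helped choose these cells.

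Genes of the vessel wall were read next to growth and niche factors. Of the 10 tested basement membrane genes 9 were higher in the gate and none lower, against 26.3% and 29.9% over all genes. Col4a1 was at a log2 fold change of 6.02 ± 0.39, Igfbp7 at 5.68 ± 0.50 and Sparc at 5.64 ± 0.55 (edgeR, SE, n = 5 libraries). Igfbp7, which binds collagen IV and growth factors, was at 7830, 4038, 5185, 5225 and 5241 CPM in the endothelial-rich cells. Col4a1, a chain of collagen IV, was at 1805, 1459, 1155, 1321 and 1367. Of the 14 tested genes of caveolae and junctions 11 were higher and none lower, against the same shares. Among them were Cavin3 at 6.12 ± 0.52 and Cav1 at 5.91 ± 0.51. Of 9 tested growth and niche factors 3 were higher and 4 lower, close to the 26.3% and 29.9% over all genes. Kitl, the ligand of the receptor Kit on blood progenitors, rose by 4.78 ± 0.29 and was at 572, 768, 591, 599 and 590. Bmp2 rose by 5.19 ± 0.60 and was at 423, 636, 757, 481 and 582. Csf1, Il15, Igf1 and Hgf were lower in the gate, and Il7, Il33 and Rspo3 were at 0 in the endothelial-rich cells.

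Of 10 tested coagulation and vessel tone genes 5 were higher in the gate and 2 lower, against 26.3% and 29.9% over all genes. F8, which encodes factor VIII, rose by 4.18 ± 0.38 and was at 348, 285, 153, 241 and 312 CPM in the endothelial-rich cells. Tfpi, the tissue factor inhibitor, rose by 4.49 ± 0.41 and was at 1148, 911, 524, 705 and 633. Of 9 tested chemokine genes 2 were higher, Cxcl10 and Ackr3, and Cxcl9, Ccl5 and Cxcl2 were lower, shares close to the 26.3% and 29.9% over all genes. Ackr3, which removes CXCL12, rose by 4.42 ± 0.35. Cx3cl1, Ccl2, Ccl7 and Cxcl1 were at 0 in the endothelial-rich cells. Of 9 tested Notch genes the ligands Dll4 (4.46 ± 0.91), Dll1 (2.54 ± 0.34) and Jag1 (2.23 ± 0.56) and the target Nrarp (2.17 ± 0.31) were higher, Notch2 and Rbpj were lower, and Hes1, Notch1 and Notch4 did not pass. Heyl was at 0. The Notch counts stand against the same 26.3% and 29.9% over all genes.

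The erythroid-marker cells hold 81.5% of the gate's UMIs, and their part in the next counts was not tested. These counts stand against 26.3% higher and 29.9% lower in the gate over all genes. Of 29 tested cell cycle genes 27 were higher in the gate, with log2 fold changes of 0.58 to 1.56, and the list took 12.1 to 40.4 UMIs per 10,000 in the endothelial-rich cells of the 5 libraries. Of 10 erythroid genes Car1, Car2, Klf1 and Ermap were higher and 4 lower, and of 10 progenitor genes 8 were higher. All 16 tested genes of MHC class II presentation and all 10 general leukocyte genes were lower, and genes of B cells, T cells and macrophages were limited by the rule itself. Erythroid markers were low in the endothelial-rich cells, at 0.298 to 1.21 UMIs per 10,000 against 7.57 to 18 in the other base cells. General leukocyte markers were at 3.18 to 6.13, against 65.3 to 84.2, and macrophage markers at 1.88 to 5.15, against 10.1 to 12.6. Dendritic cell markers were not lower by range, at 10.2 to 15.8 against 10.5 to 18.6; that list includes Bst2 and Irf8, and Irf8 was at 288, 351, 232, 305 and 406 CPM in the endothelial-rich cells. Progenitor markers were at 7.9 to 10.2, against 2.07 to 4.18, and megakaryocyte markers at 0.0664 to 4.06, against 0.89 to 1.06. The part of these cells in the results was not tested. Of the 16 markers of fibroblasts and mural cells 3 had any UMI in the endothelial-rich cells, and Dcn, Lum and Acta2 were at 0.

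Within the endothelial-rich cells, detection of Gpihbp1 went with a large difference in other genes. Gpihbp1 was detected in 99 of the 167 cells (59.3%), and in 15 of 21, 6 of 17, 15 of 28, 29 of 42 and 34 of 59 per library. Median depth was 3728.5 UMIs in Gpihbp1-positive and 3705 in Gpihbp1-negative cells of the saline library, and 10017 and 7679.5 in the live allogeneic library, where both kinds of cells differed most in depth. After thinning each cell to 1000 UMIs, Gpihbp1 was detected in 42.9, 35.3, 46.4, 59.5 and 44.1% of the endothelial-rich cells of the live allogeneic, live isogeneic, apoptotic allogeneic, apoptotic isogeneic and saline libraries. The split was chosen after the values were seen, so the sums per library are given with no test. Over 3066 genes with at least 50 UMIs, all 5 Gpihbp1-positive sums lay above all 5 Gpihbp1-negative sums in 5.06% and below in 4.6%.

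Kdr, which helped choose the cells, was at 1298 to 2466 CPM in Gpihbp1-positive sums and at 170 to 417 in Gpihbp1-negative ones. Cd36 was at 1679 to 2577, against 327 to 671, a ratio of the pooled levels of 4.32. Esm1 was at 356 to 831, against 0 to 33.4, and Aplnr at 262 to 526, against 0 to 40.3. The tip-cell co-receptor Nrp1 was at 237 to 859, against 0 to 60.5. The arterial genes Efnb2, at 121 to 332 against 18.2 to 117, and Sox17, at 44.7 to 188 against 0 to 16.7, did not overlap either. Abcc9 was at 618 to 1053, against 40.3 to 291, and its channel partner Kcnj8 at 388 to 650, against 30.3 to 134. Kit, the receptor for Kitl, was at 89.2 to 170, against 0 to 50. Of the 9 basement membrane genes compared, Col4a1, Col4a2, Hspg2 and Col18a1 were higher in every Gpihbp1-positive sum.

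The Gpihbp1-negative cells carried another set. Star, the protein that brings cholesterol into mitochondria for steroid synthesis, was at 55.2 to 205 CPM in Gpihbp1-positive sums and at 1134 to 2189 in Gpihbp1-negative ones, a ratio of pooled levels of 0.0786. Sema3d, a secreted guidance protein, was at 0 to 198, against 988 to 1326, and Synm, an intermediate filament protein, at 0 to 25.6, against 224 to 413. Nr2f2 was at 143 to 360, against 581 to 734, Prox1 at 170 to 217, against 292 to 738, and Ackr3 at 11 to 153, against 292 to 424. The Notch ligand Jag1 was at 0 to 63.9, against 150 to 425. Tfpi, F8 and Gpr182 were also lower in every Gpihbp1-positive sum. Stab2 was high in both, at 1010 to 1325 in Gpihbp1-positive and 1435 to 1812 in Gpihbp1-negative sums, without overlap. Pecam1 (454 to 629, against 201.7 to 515) and Flt1 (567 to 970, against 268 to 584) overlapped.

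**Figure D4:**
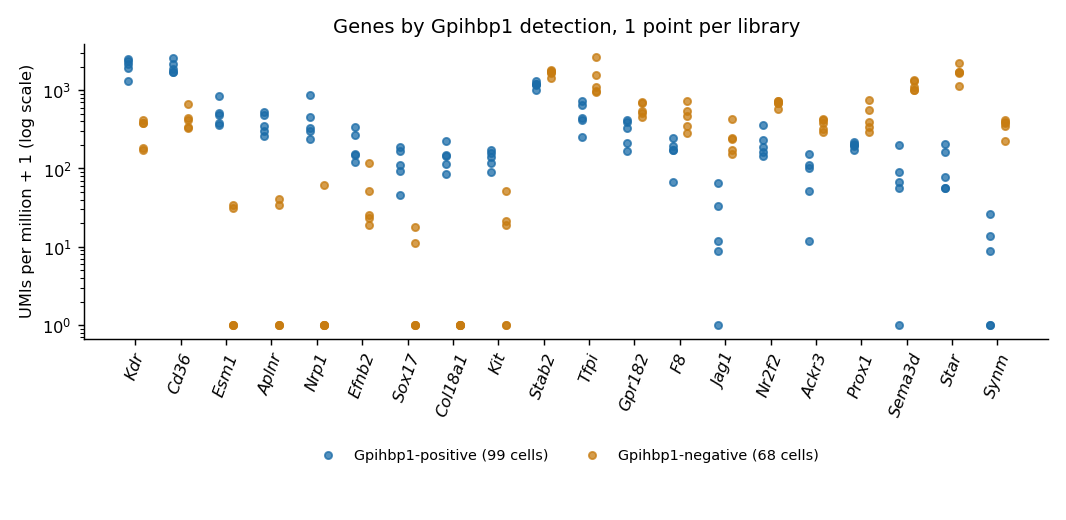
CPM plus 1, on a log axis, for 20 genes in Gpihbp1-positive (99 cells) and Gpihbp1-negative (68 cells) endothelial-rich cells, 1 point per library. Kdr to Kit lie higher in Gpihbp1-positive cells and Stab2 to Synm lower, with no overlap between the libraries.

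Levels were then compared between libraries. With 1 library per group, a difference with the kind of cells infused cannot be told apart from any other difference between libraries. Over the whole gate, where the mix of sets differed between libraries, pan-endothelial genes had a median log2 ratio of 1.91 between the live allogeneic and live isogeneic libraries and of -1.24 between the apoptotic allogeneic and apoptotic isogeneic ones. Within the endothelial-rich cells, which this list set apart, these medians were 0.02 and 0.09. A gene entered a comparison with at least 10 UMIs in both sums together and is called higher or lower past 1.5-fold, on log2 ratios with 10 CPM added to each level.

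Type I interferon response genes were higher in endothelial-rich cells of the live allogeneic library. Of 24 genes measured, 16 were higher and 1 lower in the live allogeneic than in the live isogeneic library, with a median log2 ratio of 1.03. Over all 4792 genes measured the median was 0.06, with 26.6% higher and 19.8% lower. Against saline, 16 of 25 genes were higher and 1 lower in the live allogeneic library, with a median of 0.81, against 13.4% higher and 18.6% lower of all 6303 genes. Summed over the list, endothelial-rich cells of the live allogeneic library held 1103 UMIs of 201150, those of the live isogeneic library 216 of 91144, and those of the saline library 824 of 256082. The ratio of the summed levels was 2.31 (exact Poisson 95% interval 2.00 to 2.69) for live allogeneic over live isogeneic and 1.70 (1.56 to 1.87) for live allogeneic over saline. The cells shared the difference: the median cell held 52.4 list UMIs per 10,000 in the live allogeneic library, 24.5 in the live isogeneic, 25 in the apoptotic allogeneic, 34.6 in the apoptotic isogeneic and 29.5 in the saline library. The cell with the most list UMIs gave 12.4% of those of the live allogeneic library and 17.1% of those of the live isogeneic library, and the median log2 ratio without these cells was 1.23.

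Ifitm3, which blocks entry of viruses, was at 2013 CPM in the live allogeneic library, 658 in the live isogeneic, 651 in the apoptotic allogeneic, 1110 in the apoptotic isogeneic and 851 in the saline library. Its ratio between the live allogeneic and live isogeneic libraries was 3.06 (2.33 to 4.08). Bst2, which tethers budding virus, was at 974, 450, 671, 740 and 843, a ratio of 2.17 (1.54 to 3.11). Ifi27 was at 189, 54.9, 133, 247 and 246, so that its live allogeneic level lay below saline. Isg15, a ubiquitin-like protein, had 26 UMIs in 11 of 21 cells of the live allogeneic library and 0 in the live isogeneic one, at least 3.93-fold higher against a floor of 3 UMIs. Lgals3bp had 19 and 0 UMIs.

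After apoptotic cells the same list was lower in endothelial-rich cells of the allogeneic library. Of 17 genes measured, 1 was higher and 6 lower in the apoptotic allogeneic than in the apoptotic isogeneic library, with a median log2 ratio of -0.34, against 15.6% higher and 14.2% lower of all 5115 genes. The ratio of the summed levels was 0.72 (0.63 to 0.82). Each apoptotic library lay nearer to saline: the summed ratios were 0.79 (0.70 to 0.90) for apoptotic allogeneic and 1.10 (0.99 to 1.23) for apoptotic isogeneic over saline. Against saline in endothelial-rich cells, 3 of 18 list genes were higher and 8 lower in the live isogeneic library (15.9% and 26% of all genes), 2 and 5 of 19 in the apoptotic allogeneic library (12% and 15.9%), and 4 and 2 of 21 in the apoptotic isogeneic library (12.1% and 15.9%). Over the whole gate the median was 1.79 for live allogeneic over live isogeneic, with 35 of 36 genes higher and none lower against 19.5% and 12% of all 10646, and -0.23 for apoptotic allogeneic over apoptotic isogeneic, with 1 of 29 genes higher and 10 lower against 3.45% and 10.7% of all 9828. Over saline, 33 of 36 list genes were higher and none lower in the gate of the live allogeneic library (12.8% and 8.08% of all genes) and 1 and 5 of 34 in that of the live isogeneic library (5.69% and 9.85%). None of 32 was higher and 6 were lower in that of the apoptotic allogeneic library (1.51% and 8.18%), and 3 and 2 of 29 in that of the apoptotic isogeneic library (3.58% and 4.34%). Erythroid-marker cells held 46.2, 92.1, 89.1, 69.7 and 76.8% of the gate's UMIs in the 5 libraries. Their part in these whole-gate values was not tested.

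The same list was also higher outside the gate, with medians of 0.71 in the other base cells and 0.98 in B-marker cells for live allogeneic over live isogeneic, and of 0.69 and 0.92 for live allogeneic over saline. For apoptotic allogeneic over apoptotic isogeneic the medians were -0.08 and -0.12. The part of free RNA from other cells in the levels above was not tested. The live isogeneic library stood apart in Gm42418, a transcript that overlaps ribosomal RNA repeats, and in Lars2, both inside and outside the gate. In endothelial-rich cells Gm42418 took 154909 CPM there, against 64046 to 77384 in the other 4 libraries, and Lars2 4586, against 1151 to 2085. In the other base cells Gm42418 took 62073 CPM there, against 13536 to 17924, and Lars2 2286, against 506 to 657. Their part in the comparisons with that library was not tested, and with the list that holds them left out of the totals the median was 0.90.

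**Figure D5:**
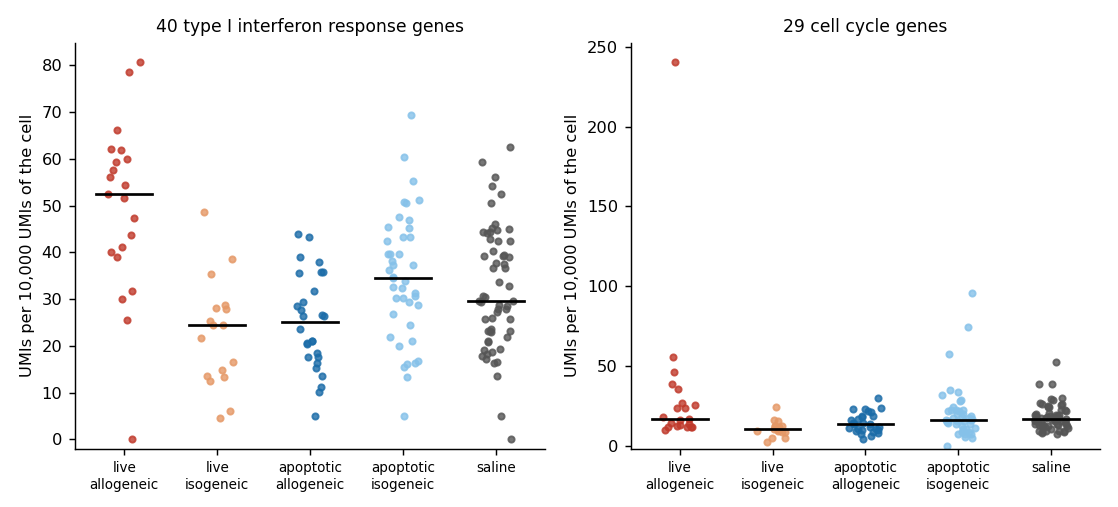
Each point is 1 endothelial-rich cell, with the UMIs of the type I interferon list (left) or the cell cycle list (right) per 10,000 UMIs of the cell, by library; lines are medians. Interferon medians were 52.4, 24.5, 25, 34.6 and 29.5, and 1 cell of the live allogeneic library held 241 cell cycle UMIs per 10,000.

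Interferon-gamma response and antigen presentation genes differed less evenly. Against saline, 11 of 15 interferon-gamma genes were higher and none lower in the live allogeneic library, against 13.4% and 18.6% of all genes (median log2 ratio 0.93, against -0.05 over all genes). Outside the gate this median was 0.69 in the other base cells and 0.98 in B-marker cells. Against the live isogeneic library 8 of 14 interferon-gamma genes were higher and 2 lower, against 26.6% and 19.8% of all genes, while the summed ratio was 1.05 (0.88 to 1.24). Outside the gate the median of this comparison was 0.67 in the other base cells and 0.90 in B-marker cells. In endothelial-rich cells 1 cell gave 27.7% of the list's UMIs in the live allogeneic library and 1 cell 40.6% in the live isogeneic library. In the apoptotic allogeneic library 5 of 11 genes of this list were higher and 1 lower than in the apoptotic isogeneic one, against 15.6% and 14.2% of all genes, with a median log2 ratio of 0.57, the opposite sign to the type I list. Outside the gate this median was 0.003 in the other base cells and 0.019 in B-marker cells. Iigp1, a GTPase that attacks parasite vacuoles, was at 452, 680, 359, 223 and 250 CPM. Cxcl10, a chemokine for T cells, was at 567, 329, 345, 82.2 and 293, and was thus lowest in the apoptotic isogeneic library, with a ratio of 4.2 (2.29 to 8.21) for apoptotic allogeneic over apoptotic isogeneic. MHC class I genes had a summed ratio of 1.43 (1.35 to 1.51) for live allogeneic over saline and of 1.16 (1.07 to 1.25) for live allogeneic over live isogeneic, and 8 of 23 genes (against 13.4% of all genes) and 4 of 21 genes (against 26.6%) were higher with none lower. The second count is under the share of all genes, and with the list that holds Gm42418 and Lars2 left out of the totals the median log2 ratio for live allogeneic over live isogeneic was 0.019, against 0.16 with it. For live allogeneic over saline the MHC class I median was 0.40 in endothelial-rich cells. Outside the gate it was 0.36 in the other base cells and 0.61 in B-marker cells. B2m, the light chain of MHC class I, was at 2406, 2282, 1500, 1521 and 1371, so both live libraries lay above both apoptotic libraries and saline. MHC class II transcripts were scarce, with 31, 33, 19, 28 and 92 UMIs of the list.

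Cell cycle genes were higher in the live allogeneic library in 17 of 17 measured genes against the live isogeneic one, against 26.6% of all genes (median log2 ratio 2.01, or 1.44 with the 7 genes at 0 in the live isogeneic library set at their floor of 3 UMIs). A single cell gave 55.4% of the list's UMIs in the live allogeneic library. Without the cell richest in the list in each library, 4 of 7 genes were higher and the median was 0.61. The median cell held 16.9, 10.2, 13.6, 16.3 and 16.9 list UMIs per 10,000 in the 5 libraries, with the live allogeneic and saline medians equal at the digits given. The list of heat stress and dissociation genes was at a median log2 ratio of 0.29 for live allogeneic over live isogeneic and 0.61 for apoptotic allogeneic over apoptotic isogeneic.

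Among single genes of the endothelial-rich cells, Ly6a, which encodes the surface protein Sca-1 (chr15:74994877-74998031), had the highest log2 ratio between the live allogeneic and live isogeneic libraries among genes with at least 50 UMIs, found in at least 10% of cells of 1 library and at a level of at least 0.5 of that in the other base cells. Its 230 UMIs in live allogeneic cells stood against 11 in live isogeneic cells (1143 and 121 CPM, ratio 9.47, exact Poisson interval 5.20 to 19.3). Ly6a was detected in 81.0% and 23.5% of these cells, at unlike median depths of 8204 and 4424 UMIs. Against saline, at 324 CPM, its ratio was 3.53 (2.73 to 4.59). Ctla2a, Id1 and Fcer1g were also among the highest, with ratios of 4.76 (3.22 to 7.28), 5.59 (2.45 to 15.7) and 5.05 (2.34 to 13.0). Id1, a target of BMP signalling, was at 368, 65.8, 153, 405 and 383, so that the live isogeneic library was low and the live allogeneic library close to saline. Fcer1g was likewise low in the live isogeneic library, at 76.8 CPM, against 388 in the live allogeneic and 340 in the saline library. The lowest were Lars2 (0.30, 0.26 to 0.35), Prnp, Tcf12, Rsrp1 and Myo10. Between the apoptotic allogeneic and apoptotic isogeneic libraries, Cxcl10, Gm14226, Gm37350, Nsd3 and Tomm7 were highest, with ratios of 2.26 to 4.2, and Atp5g1, Ran, Id1, Rhoc and Ndufa11 lowest, with 0.36 to 0.47. Between the live allogeneic and saline libraries, Sem1 (3.97, 2.67 to 6.03), Ly6a, Ran and Gm37350 were among the highest and Rapgef3, Proser2, Thbd, Sash1 and Atraid lowest. Thbd, the thrombin receptor thrombomodulin, was at 54.7, 76.8, 39.8, 129 and 156, and its ratio for live allogeneic over saline was 0.35 (0.16 to 0.70). Ly6a is also a known interferon-inducible gene and was not in either interferon list.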

How the data were processed

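UMI counts per gene and cell barcode were deposited by the authors for 5 spleen libraries. Per the submitters' processing notes they come from Cell Ranger 4.0 and mm10, and per the labels from the 10x 3′ v3.1 chemistry. The apoptotic allogeneic library listed 2491 barcodes, and each other library 6794880. The part of this difference in the base cells and in their shares was not tested. Filtering to base cells, the gate and all sums were computed here from the deposited counts. Libraries held 12742889 to 32641733 UMIs over the barcodes listed. They held 1186 to 6380 base cells with medians of 2298 to 4984.5 UMIs, and endothelial-rich cells 91144 to 256082 UMIs per library. Scrublet marked 0.0843 to 1.83% of base cells as doublets; they were kept, and leaving them out is an alternative. The gate against the other base cells was tested with edgeR 4.0.16 (quasi-likelihood, TMM, library as block, Benjamini-Hochberg over all 11782 genes) and DESeq2 1.42.0 as an alternative. The scripts were tested on simulated data. Between libraries there was no test: levels are CPM, with exact Poisson intervals, and shares have exact Clopper-Pearson intervals at 95%. Nothing says whether a library pools mice. The p-values set the difference between the gate and the other base cells against the spread of that difference over the 5 libraries, as estimated by edgeR. These libraries are of different groups and are not replicates of 1 group. That spread therefore also holds any difference between groups and in the mix of the sets.

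The members, the gene lists and the comparisons were chosen with earlier results of these data known. Named genes include the 25 highest in the edgeR fit. These had an edgeR adjusted p under 0.05, a higher level in the gate of every library and a UMI in at least 10% of members. Also named are up to 5 members of each list with the most UMIs, and vessel, Notch and chemokine genes at 0. Between libraries they are the 5 highest and lowest with at least 50 UMIs and a UMI in at least 10% of cells of 1 library. Their level was at least 0.5 of that in the other base cells. Further genes, the limit of 40, the 3 sets and the Gpihbp1 split were chosen after the values were seen. Gene positions are from GENCODE vM21 (mm10), promoters from RefSeq (GRCm38.p6). Some genes that these rules name are not reported here.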

Additional observations from a re-analysis of the deposited data

Results flagged for a closer look

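The ratio of the allogeneic over the isogeneic library was compared between live and apoptotic infusions by list medians. The difference between the 2 ratios was not tested, since each group is 1 library. In endothelial-rich cells the type I interferon list had a median log2 ratio of 1.03 after live cells and of -0.34 after apoptotic cells. The cell cycle list had 2.01 after live and -0.75 after apoptotic cells, and 1 live allogeneic cell gave 55.4% of that library's list UMIs. Over the whole gate the MHC class I list had 1.5 after live and -0.23 after apoptotic cells, the cell cycle list -0.83 and 0.16, and the pan-endothelial list 1.91 and -1.24. The share of the gate's UMIs held by erythroid-marker cells was 46.2 and 92.1% in the live allogeneic and live isogeneic libraries, and 89.1 and 69.7% in the apoptotic allogeneic and apoptotic isogeneic ones. Its part in the values over the whole gate was not tested.

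Outside the gate, 20 base cells also held at least 40 pan-endothelial UMIs per 10,000. Of these, 10 had too few gate UMIs and 10 passed a limit on B cell, T cell or C1q genes. They numbered 5, 1, 3, 3 and 8 in the live allogeneic, live isogeneic, apoptotic allogeneic, apoptotic isogeneic and saline libraries.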

How the results depend on the processing

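Between groups, no replicate numbers pair samples. No paired analysis was possible because each group has 1 library; the gate and the other base cells were compared within libraries, with library as a block. The share of base cells in the gate, in the order live allogeneic, live isogeneic, apoptotic allogeneic, apoptotic isogeneic and saline, was 2.7, 1.11, 1.84, 0.627 and 2.10% with at least 6 gate UMIs, 2.28, 0.488, 1.37, 0.690 and 2.03% after thinning, and 1.77, 0.461, 1.32, 0.658 and 2.03% at 40 or more pan-endothelial UMIs per 10,000, an alternative chosen after seeing the data. With at least 2 gate genes it was 2.87, 1.25 and 0.721% in the live allogeneic, live isogeneic and apoptotic isogeneic libraries. With at most 1 Ptprc UMI it was 2.36, 1.41 and 2.22% in the live allogeneic, live isogeneic and apoptotic allogeneic libraries. Genes higher in the gate numbered 1545 with at least 6 gate UMIs, 3092 with DESeq2 and 3293 with no library block, and genes lower 3595 with DESeq2 and 3639 with no library block. Leaving out 1 library at a time gave 2129 to 3688 genes higher and 2770 to 4196 lower. Over all 338 cells the shares with a UMI of Stab2, Gpihbp1, Nr2f2 and Sox17 were 48.2, 29.3, 33.1 and 12.4%. They were 37.3, 24, 14.5 and 4.44% after thinning, and 96.4, 59.3, 64.7 and 25.1% in endothelial-rich cells. The type I interferon median for live allogeneic over live isogeneic, 1.79 over the whole gate, was 1.33 with at most 1 Ptprc UMI, 1.35 as a mean over cells, 0.88 with 50 CPM added, 1.03 in endothelial-rich cells, 1.23 without the cell richest in the list and 1.15 as a mean over endothelial-rich cells. For apoptotic allogeneic over apoptotic isogeneic it was -0.81 with at least 6 gate UMIs.

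Log2 ratios that changed sign did so mainly when the gate was narrowed to endothelial-rich cells. For live allogeneic over live isogeneic these were Hist1h3c (3.24), Hist1h2ap (3.45), Enah (0.32), Sh2d4a (0.58) and the cell cycle list (2.01). For apoptotic allogeneic over apoptotic isogeneic they were Polr2l (-1.62), Nrgn (-0.67) and the MHC class I (0.020), cell cycle (-0.75) and pan-endothelial (0.086) lists. For live allogeneic over saline they were Ifi27l2a (-0.60), Plac8 (-2.78), Ly6c2 (-2.69), S100a6 (-0.54), Ube2c (2.16) and the MHC class II (-2.22) and cell cycle (1.63) lists. For live isogeneic over saline they were Hist1h2ap (-1.12) and Hist1h3c (-0.48), for apoptotic allogeneic over saline the MHC class I (0.085) and pan-endothelial (0.022) lists, and for apoptotic isogeneic over saline the cell cycle list (0.60). With at most 1 Ptprc UMI the MHC class II list was at -0.95 for live allogeneic over live isogeneic and -0.16 for live allogeneic over saline. The cell cycle list was at 0.18 for live allogeneic over saline with at least 6 gate UMIs, and the type I interferon list at 0.16 for live isogeneic over saline as a mean over cells. The cause was not tested. With 17 to 59 endothelial-rich cells per library, genes of few UMIs have wide counting intervals.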
